A study of Mus musculus with 11 samples.

Results

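The genes described here make up the skeletal muscle program, and they were followed through molar tooth germ libraries in which muscle is a minor tissue. They were chosen by name from 34 symbols, of which 31 were found among the 16755 genes of the table. The other 3 (Ckm, Myf5 and Pax7) were not analysed here. The 31 genes comprised 2 myogenic regulators (Myod1 and Myog), 18 contractile genes and 11 others. All 31 had a mean below the level of the median gene (3.03 on the log2 scale), with means from 0.13 (Ttn) to 2.60 (Cryab).

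RNA was sequenced from maxillary molar germs dissected at E14.5, when the molars are at the cap stage. There were 4 wild-type (Cilk1+/+) libraries, 4 Cilk1-/- libraries and 3 libraries of the compound mutant Cilk1-/-;PCS1-MRCS1△/△, so that the compound mutants also lacked Cilk1. Cilk1 encodes a kinase of the primary cilium, and its null allele was a germline deletion of an exon, carried by muscle and molar tissue alike. The PCS1-MRCS1 deletion takes out distant enhancers that drive Shh in the oral epithelium. The labels give 6 per biological replicate without saying whether these were germs or embryos, and describe the embryos as littermates. Wild-type and Cilk1-/- replicates 1 to 3 form one label set of 6 libraries, and replicate 4 of both genotypes shares the other set of 5 with the 3 compound mutants. P-values therefore rest on the spread between these pools of tissue, taken as independent. Same-numbered wild-type and Cilk1-/- libraries were not independent, as given below, and the p-values of Cilk1-/- against wild type do not allow for this. Nor do those of the other comparisons, since all 3 come from 1 fit and share its estimate of the spread.

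Values are on the deposited log2(value + 1) scale, where the value is probably FPKM, and a level called linear here has the log2 and the added 1 removed. The linear values of all genes summed to 339971 to 364616 per library, and the read depth is unknown. Cilk1, listed as Ick, was at 3.45 to 3.60 in wild type, 2.72 to 2.86 in Cilk1-/- and 2.60 to 2.67 in the compound mutants on the log2 scale. Compound mutant replicate 1 stood apart in tissue markers: the summed linear level of 6 cartilage markers was 728 there and 17.3 to 58.5 in the other 10 libraries. Its 9 neuron markers summed to 252 (41.1 to 87.6 elsewhere), and its dental mesenchyme and dental epithelium markers had the lowest sums of the 11 libraries. Compound mutant replicate 3 had the lowest sum of 10 erythroid markers (1060, against 2892 to 4183 elsewhere). Compound mutant replicate 2 had the highest sum of 8 bone markers (326, against 101 to 242 elsewhere).

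Most skeletal muscle of the head arises from cranial mesoderm, and its progenitors enter differentiation under basic helix-loop-helix factors. MyoD (Myod1) commits and drives myoblasts, and myogenin (Myog) brings about terminal differentiation, both acting through E-boxes in muscle genes. Myoblasts then fuse through myomaker, the product of Tmem8c (also named Mymk), and assemble sarcomeres from thick filaments of myosin and thin filaments of actin, troponin and nebulin. Early fibers use embryonic and perinatal myosins (Myh3 and Myh8) and much cardiac actin (Actc1), which is later replaced by skeletal actin (Acta1). Actc1, Tnnt2, Tnnc1, Myl4 and Casq2 are also heart genes, whereas Myod1, Myog, Mylpf, Acta1, Tnnt3 and the acetylcholine receptor subunits mark skeletal muscle.

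The sequences before 5 of these genes show the elements by which muscle regulators are known to act, and they are given for the 3 genes that passed the test below (Acta1, Actc1 and Myh3), for the regulator Myog and for the receptor gene Chrna1. Each is the 250 bases before the start that RefSeq annotates on GRCm38.p6, read 5′ to 3′ on the gene's strand. Capitals mark E-boxes (CANNTG), CArG boxes (the serum response factor element) and TATAAA, searched on both strands. The windows are chr8:123894776-123895025 (minus) for Acta1, chr2:114052876-114053125 (minus) for Actc1, chr11:67078050-67078299 (plus) for Myh3, chr1:134289754-134290003 (plus) for Myog and chr2:73580339-73580588 (minus) for Chrna1.
Acta1: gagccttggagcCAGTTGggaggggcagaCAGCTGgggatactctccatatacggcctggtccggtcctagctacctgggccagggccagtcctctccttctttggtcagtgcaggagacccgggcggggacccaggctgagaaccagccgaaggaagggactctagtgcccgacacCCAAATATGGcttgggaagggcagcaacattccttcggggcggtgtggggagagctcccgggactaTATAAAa
Actc1: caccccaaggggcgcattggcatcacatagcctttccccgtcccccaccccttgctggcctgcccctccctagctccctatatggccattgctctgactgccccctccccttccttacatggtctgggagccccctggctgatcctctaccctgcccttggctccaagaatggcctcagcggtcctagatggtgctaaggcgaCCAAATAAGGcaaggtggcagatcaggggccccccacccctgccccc
Myh3: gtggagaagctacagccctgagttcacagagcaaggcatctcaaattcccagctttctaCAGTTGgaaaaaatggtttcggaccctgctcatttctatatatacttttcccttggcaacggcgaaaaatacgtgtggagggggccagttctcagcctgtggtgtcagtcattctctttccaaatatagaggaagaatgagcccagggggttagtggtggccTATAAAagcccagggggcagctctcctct
Myog: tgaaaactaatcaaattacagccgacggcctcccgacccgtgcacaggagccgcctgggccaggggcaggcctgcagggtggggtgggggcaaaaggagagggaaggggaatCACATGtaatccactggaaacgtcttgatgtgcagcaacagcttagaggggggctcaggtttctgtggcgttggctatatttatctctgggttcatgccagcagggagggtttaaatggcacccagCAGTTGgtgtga
Chrna1: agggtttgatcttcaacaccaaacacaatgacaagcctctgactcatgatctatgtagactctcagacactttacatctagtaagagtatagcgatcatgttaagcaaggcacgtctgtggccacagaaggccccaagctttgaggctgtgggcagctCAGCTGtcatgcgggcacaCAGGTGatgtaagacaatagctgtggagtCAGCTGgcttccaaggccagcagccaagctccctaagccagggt

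A window was found for 24 of the 31 genes, and Myod1, Tmem8c, Neb, Tnnt3, Tnni2, Cryab and Chrnd had no entry. An E-box stood in 21 of the 24 genes and in 66.2% of all 32851 windows of this length. The form CAGCTG, which is one of the E-boxes counted above, stood in 12 of the 24 genes and in 13.0% of all windows. The CArG box stood in 2 of the 24, which were the alpha-actin genes Acta1 (bases -73 to -64 from the annotated start) and Actc1 (-47 to -38), and in 1.47% of all windows. TATAAA stood in 5 of the 24 (12.4% of all windows), the MEF2 element in 4 (2.92%) and CATTCC, the core of the MCAT element, in 5 (12.6%). These are matches of letters and no binding was measured.

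The 31 genes moved together from library to library. Of the 31 genes, 30 were highest in Cilk1-/- replicate 1, and 1 (Cacna1s) was highest in compound mutant replicate 3. Of all genes, 6.71% were highest in Cilk1-/- replicate 1. Cilk1-/- replicates 1 and 4 were the top 2 libraries for 18 of the 31 genes (1.49% of all genes), and 14 of these 18 were contractile. Wild-type replicates 1 and 4 were both below wild-type replicates 2 and 3 for 30 of the 31 genes (16.4% of all genes), the exception being Chrng. The lowest library was wild-type replicate 1 for 9 genes (5.75% of all genes), wild-type replicate 4 for 5 (7.17%) and a compound mutant for 17. Compound mutant replicates 1, 2 and 3 were lowest for 9, 3 and 5 of these, against 17.6%, 13.1% and 17.1% of all genes. A compound mutant was thus often the lowest library over all genes as well.

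**Figure D1:**
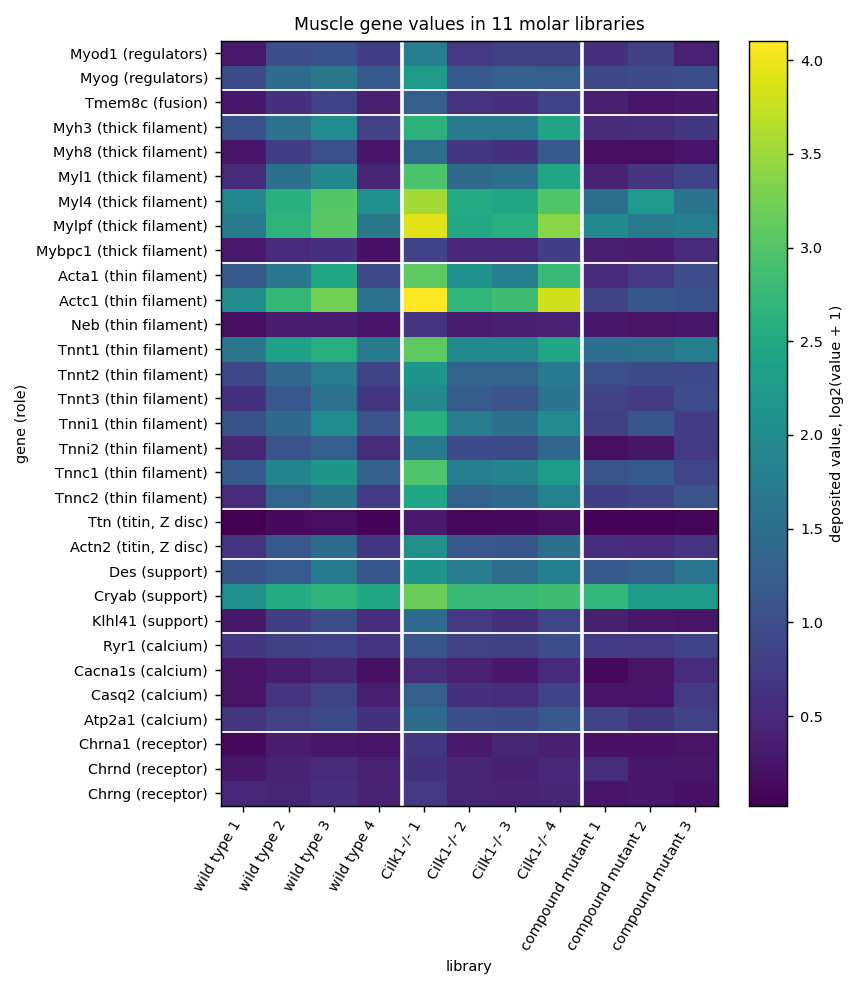
Deposited log2(value + 1) of the 31 muscle genes (rows, with their role) in the 11 libraries (columns); color gives the level, and white lines separate genotypes and roles. Cilk1-/- replicates 1 and 4 are bright across the contractile rows, and the 3 compound mutant columns are dark for Actc1, Acta1 and Myh3.

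The 18 contractile genes summed to linear levels of 18.6, 38.6, 56.1 and 18.0 in wild-type replicates 1 to 4. In Cilk1-/- replicates 1 to 4 the sums were 99.7, 37.6, 37.2 and 67.8, and in the compound mutants they were 14.3, 16.7 and 17.0. The 3 compound mutants were thus below the other 8 libraries and close to one another, while wild type and Cilk1-/- overlapped. The means were 32.8 ± 18.2 (SD, n = 4), 60.6 ± 29.7 (SD, n = 4) and 16.0 ± 1.48 (SD, n = 3), and the highest library held 6.97 times the level of the lowest. All 31 genes took 0.00720% to 0.0357% of a library's summed linear value, so these are small amounts of RNA. In dissected tissue, fewer muscle cells and less RNA per muscle cell cannot be told apart.

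The regulators and the contractile genes ranked Cilk1-/- replicate 4 differently. Myod1 and Myog summed to 1.18, 2.72, 3.18 and 1.95 in wild-type replicates 1 to 4, to 6.25, 1.84, 2.16 and 2.13 in Cilk1-/- and to 1.40, 1.70 and 1.32 in the compound mutants. Cilk1-/- replicate 1 was the highest library for both groups. Cilk1-/- replicate 4 was second for the contractile sum, but its regulator sum was below those of wild-type replicates 2 and 3 and of Cilk1-/- replicate 3. This difference between the groups was not tested.

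**Figure D2:**
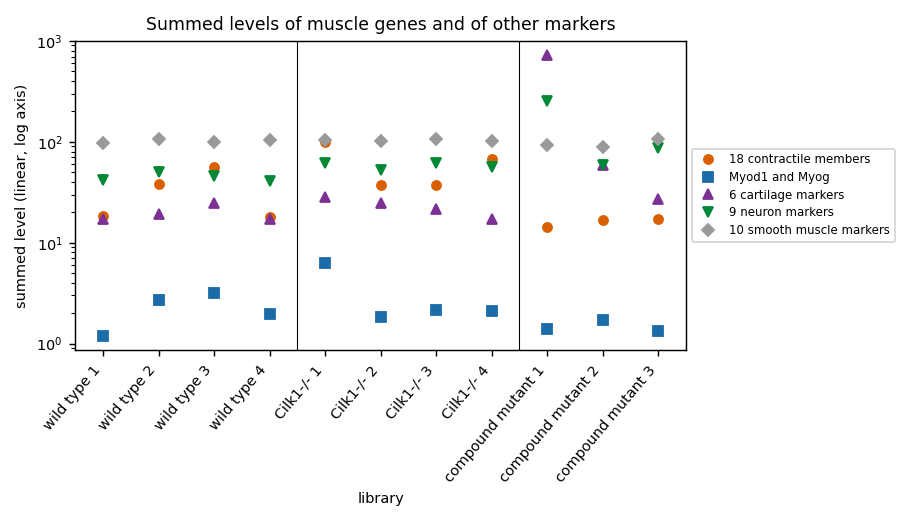
Summed linear level (log axis) per library of the 18 contractile genes, of Myod1 with Myog, and of cartilage, neuron and smooth muscle markers; vertical lines separate the genotypes. The contractile sum runs from 14.3 to 99.7, the smooth muscle sum stays between 89.2 and 108, and the cartilage sum of compound mutant replicate 1 stands at 728.

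The comparison of the compound mutant with Cilk1-/- asks what the added enhancer deletion changed on a Cilk1-/- background, and it held the largest muscle differences of the 3 comparisons. All 31 genes had a lower mean in the compound mutant (49.0% of all genes were lower). Actc1, Acta1 and Myh3 fell, by 2.35, 1.71 and 1.52 on the log2 scale, and were the 3 of 31 genes past an adjusted p of 0.05 in limma with a fold change of at least 1.5, where 0.388% of all genes were called lower. With no adjustment of p, 16 of the 31 were lower (0.973% of all genes), 15 of them contractile and the other Klhl41. For 24 of the 31 genes every compound mutant library was below every Cilk1-/- library (9.3% of all genes). The median difference was -0.59 over the 31 genes, -0.87 over the contractile genes, -0.47 over the 2 regulators and 0.0028 over all genes. With the replicate number as a block none of the 3 calls remained, at differences of -2.41 for Actc1, -1.57 for Myh3 and -1.76 for Acta1 and limma adjusted p of 0.181, 0.192 and 0.2175, and 14 of the 31 passed at an unadjusted p. None remained either with only the 2 genotypes fitted (same differences as above, limma adjusted p of 0.0866, 0.0979 and 0.112) or with the label set as a term (-2.17, -1.39 and -1.56, limma adjusted p of 0.254, 0.295 and 0.326). Without Cilk1-/- replicate 4 none of the 31 was called, and the 3 adjusted p were 0.0667 for Actc1, 0.0852 for Myh3 and 0.104 for Acta1.

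The comparison of Cilk1-/- with wild type addresses the loss of the kinase alone. All 31 genes had a higher mean in Cilk1-/- (51.2% of all genes), with a median difference of 0.40 on the log2 scale. None of the 31 was called by limma, against 0.37% of all genes, and their adjusted p ran from 0.102 to 0.848. At an unadjusted p under 0.05, 12 of the 31 were higher (9.57% of all genes), and 5 of them (Myh3, Myl1, Acta1, Actc1 and Tnnc2) also passed the fold change (0.412% of all genes), of which Myh3 alone did with the replicate block. The groups overlapped for all but 2 genes, Cryab and Atp2a1 (10.2% of all genes did not overlap, with Cilk1-/- higher).

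The higher means in Cilk1-/- went with 2 of the 4 replicate numbers. Cilk1-/- replicate 1 exceeded wild-type replicate 1 in all 31 genes, with a median difference of 1.26 on the log2 scale, and replicate 4 exceeded its wild-type counterpart in all 31 with a median of 0.68. For replicate 2 the difference was positive in 11 genes and negative in 20 (median -0.02), and for replicate 3 in 4 and 27 (median -0.30). Differences over 1 on the log2 scale were found in 21 genes for replicate 1 and in 6 for replicate 4, against 0.292% and 0.466% of all genes, and in none for replicates 2 and 3. For the regulators the medians were 1.39, -0.30, -0.31 and 0.06, so that replicate 4 held a contractile difference (median 0.91) with almost none in Myod1 (0.04) and Myog (0.08). In the deposited values, same-numbered wild-type and Cilk1-/- libraries deviated from their genotype means in opposite directions in 80.4% to 89.4% of all genes and in 21 to 31 of the 31 muscle genes. A high Cilk1-/- library beside a low wild-type library of its number is therefore not a pair of independent observations. The fitted SE of Cilk1-/- against wild type (0.280 for Myh3 and 0.388 for Actc1) takes them as independent. Over the 4 replicate numbers the SD of the difference was 0.992 for Myh3 and 1.38 for Actc1. This SD describes single differences and cannot be set directly against the fitted SE. An SE of the mean over the 4 numbers would be this SD divided by the square root of 4. Where linked libraries deviate in opposite directions, the fitted SE and its p-value are too small.

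**Figure D3:**
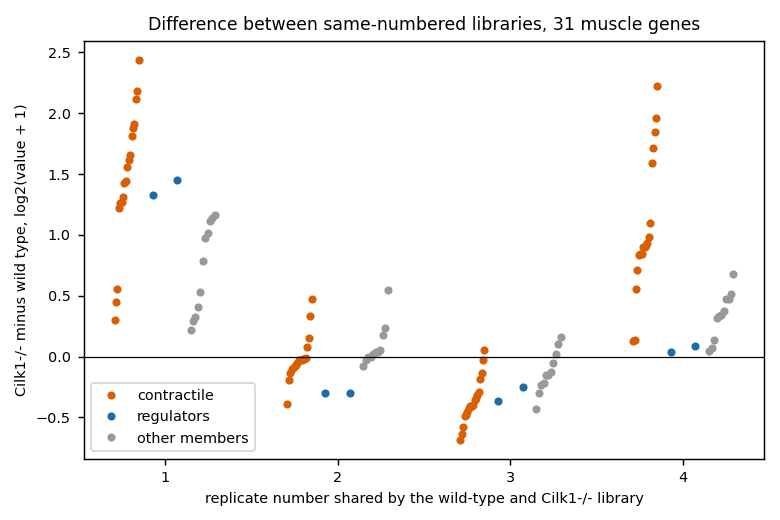
Difference Cilk1-/- minus wild type on the log2(value + 1) scale for each muscle gene (points, ordered by value within a class) at each replicate number; the line marks no difference. All points lie above 0 for replicates 1 and 4, and most lie below 0 for replicates 2 and 3.

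In the compound mutant against wild type, both alterations were compared with neither. The mean was lower in 28 of the 31 genes and higher in 3 (Des, Atp2a1 and Ryr1, by 0.08, 0.02 and 0.01), with a median of -0.22 on the log2 scale. None of the 31 was called by limma, against 1.25% of all genes, and 3 were lower at an unadjusted p under 0.05 (13.8% of all genes). Of these, Actc1 and Myh3 also passed the fold change (0.943% of all genes were lower at this threshold), and only Actc1 with the replicate block. For 6 genes (Myh3, Myh8, Actc1, Tnnc1, Actn2 and Chrng) the compound mutant libraries were all below wild type (9.05% of all genes). This comparison shares its compound mutant libraries with the comparison against Cilk1-/-.

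Within the label set that held the compound mutants, 1 wild-type and 1 Cilk1-/- library were available, so its values are given without a test. All 3 compound mutants were below Cilk1-/- replicate 4 in 29 of the 31 genes (20.9% of all genes), with a median difference of -0.58 on the log2 scale. They were all below wild-type replicate 4 in 10 of the 31 (25.6% of all genes), with a median difference of -0.04. Actc1 was lower than wild-type replicate 4 by a mean of -0.57, Myh3 by -0.22 and Acta1 by -0.20, against -2.79, -1.81 and -2.04 from Cilk1-/- replicate 4. Within the other set the mean of Cilk1-/- exceeded that of wild type in all 31 genes (50.6% of all genes), with a median of 0.28. Of its 3 replicate numbers, number 1 had the positive median of 1.26 given above, and numbers 2 and 3 had negative medians.

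**Figure D4:**
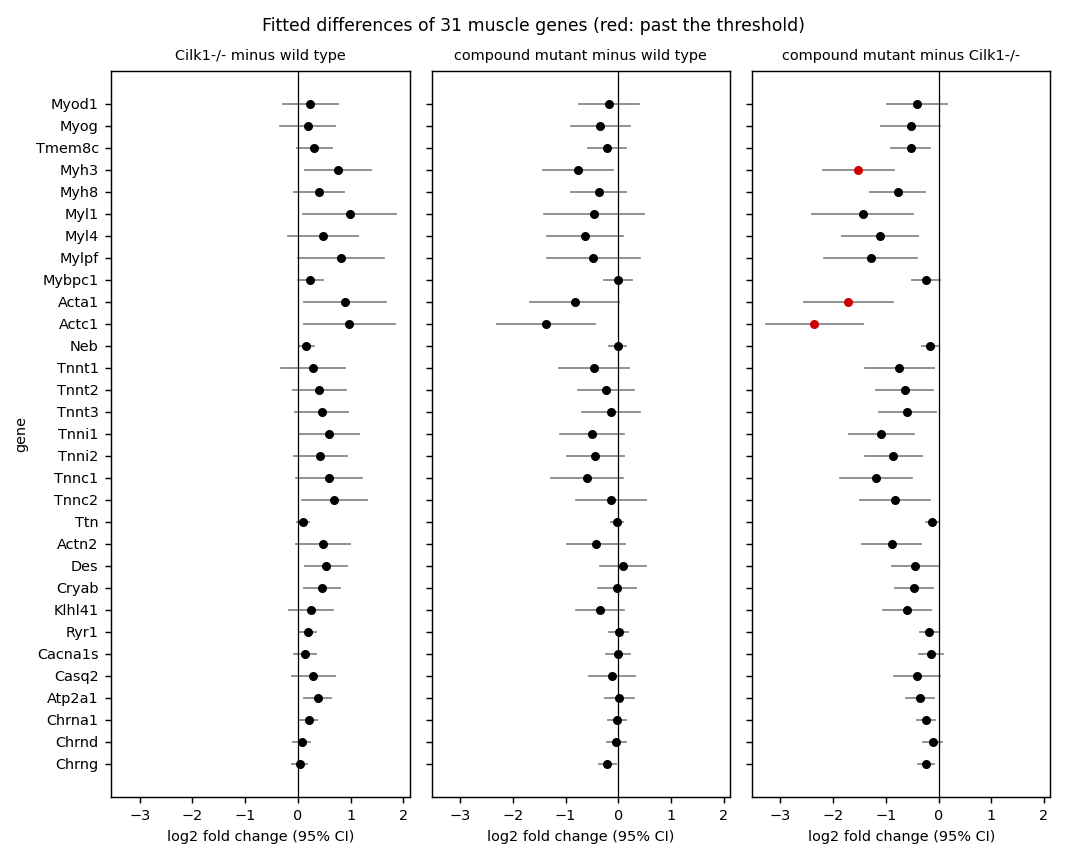
Fitted log2 fold change with its 95% confidence interval for the 31 muscle genes in each comparison; red points passed the threshold. Actc1 (-2.35), Acta1 (-1.71) and Myh3 (-1.52) are red in the comparison of the compound mutant with Cilk1-/-, and no point is red in the other 2 panels.

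Among the regulators, Myod1 was at 0.32, 0.996, 1.05 and 0.77 in wild-type replicates 1 to 4 on the log2 scale, at 1.76, 0.70, 0.80 and 0.80 in Cilk1-/-, and at 0.61, 0.79 and 0.40 in the compound mutants. Myog was at 0.95, 1.45, 1.64 and 1.17 in wild type, at 2.28, 1.15, 1.27 and 1.25 in Cilk1-/-, and at 0.90, 0.98 and 0.999 in the compound mutants. Both genes thus had 1 high library, Cilk1-/- replicate 1. Apart from that library, the genotypes overlapped for Myod1. For Myog every compound mutant library was below every Cilk1-/- library, while compound mutant and wild-type libraries overlapped. Against Cilk1-/-, the compound mutant difference was -0.42 for Myod1 (SE 0.257, limma adjusted p = 0.354) and -0.53 for Myog (SE 0.254, limma adjusted p = 0.239). Without Cilk1-/- replicate 1 the difference between Cilk1-/- and wild type turned from 0.23 to -0.01 for Myod1 and from 0.19 to -0.08 for Myog. Myog was above Myod1 in all 11 libraries, by 0.19 to 0.64.

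The fusion gene Tmem8c was low in all libraries. It was at 0.28, 0.61, 0.84 and 0.37 in wild-type replicates 1 to 4, at 1.26, 0.64, 0.62 and 0.84 in Cilk1-/-, and at 0.37, 0.26 and 0.30 in the compound mutants. Every compound mutant library was below every Cilk1-/- library, and the difference was -0.53 (SE 0.164, limma adjusted p = 0.0965).

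**Figure D5:**
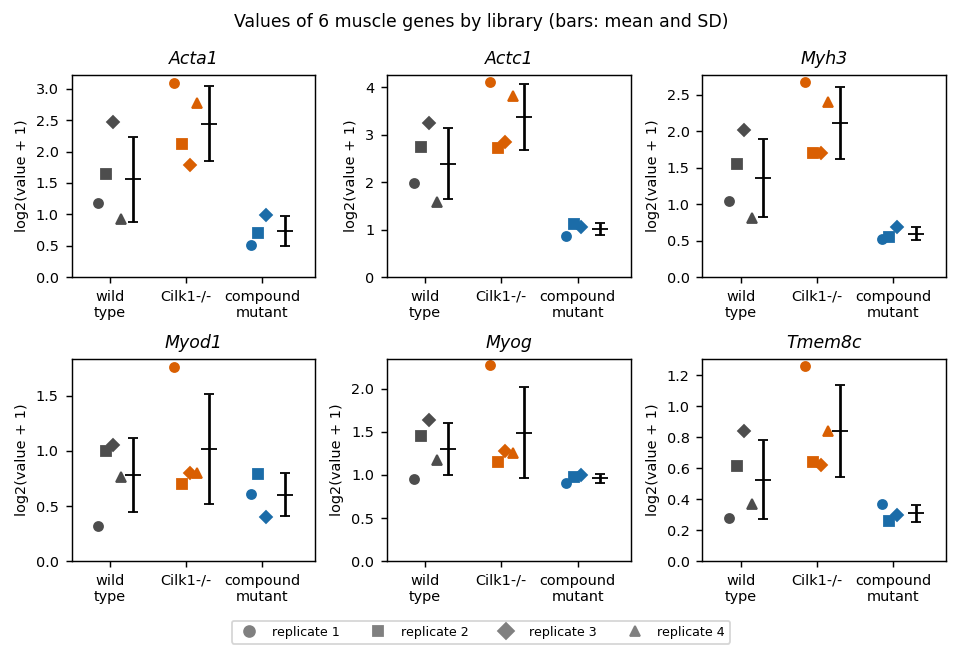
Deposited log2(value + 1) of Acta1, Actc1, Myh3, Myod1, Myog and Tmem8c in each library; marker shape gives the replicate number, and the cross with bars gives the mean and SD (n = 4, 4 and 3). The compound mutants lie below every Cilk1-/- library in all panels but that of Myod1, whose high value of 1.76 is Cilk1-/- replicate 1.

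Of the 6 thick filament genes, Myh3, the embryonic myosin heavy chain, fell in the compound mutant relative to Cilk1-/-. It was at 1.05, 1.54, 2.01 and 0.81 in wild-type replicates 1 to 4, at 2.67, 1.70, 1.69 and 2.40 in Cilk1-/-, and at 0.53, 0.56 and 0.69 in the compound mutants. The compound mutants were below every library of both other genotypes, while wild type and Cilk1-/- overlapped. The fitted difference from Cilk1-/- was -1.52 (SE 0.303, limma adjusted p = 0.0318), and that from wild type was -0.76 (SE 0.303, limma adjusted p = 0.146). The call against Cilk1-/- was lost on leaving out any of 6 single libraries (any Cilk1-/- library, wild-type replicate 2 or compound mutant replicate 1), with adjusted p up to 0.0852.

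Mylpf, the fast skeletal regulatory light chain, had the highest mean of the thick filament genes. It was at 1.73, 2.68, 3.06 and 1.66 in wild type, at 3.91, 2.48, 2.60 and 3.38 in Cilk1-/-, and at 1.95, 1.69 and 1.78 in the compound mutants. Here the compound mutants lay at the level of wild-type replicates 1 and 4 and below all Cilk1-/- libraries, with a difference from Cilk1-/- of -1.29 (SE 0.400, limma adjusted p = 0.0977). The other 4 were the perinatal myosin Myh8, the light chains Myl1 and Myl4 and the myosin binding protein Mybpc1. Their differences from Cilk1-/- were -0.78, -1.44, -1.11 and -0.24, with limma adjusted p from 0.0840 to 0.255.

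The thin filament held the 2 alpha-actins that fell. Actc1, the cardiac actin of early fibers, was at 1.99, 2.74, 3.24 and 1.58 in wild-type replicates 1 to 4, at 4.10, 2.71, 2.84 and 3.80 in Cilk1-/-, and at 0.86, 1.11 and 1.06 in the compound mutants. The 3 compound mutants were the lowest of the 11 libraries. The difference was -2.35 from Cilk1-/- (SE 0.419, limma adjusted p = 0.0223) and -1.38 from wild type (SE 0.419, limma adjusted p = 0.0735). Of the 11 fits that left out a single library, the call against Cilk1-/- was lost in 1, without Cilk1-/- replicate 4.

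Acta1, the skeletal actin, was at 1.18, 1.64, 2.47 and 0.93 in wild type, at 3.10, 2.12, 1.79 and 2.78 in Cilk1-/-, and at 0.51, 0.70 and 0.99 in the compound mutants. All compound mutants were below all Cilk1-/- libraries, and compound mutant replicate 3 was above wild-type replicate 4. The difference from Cilk1-/- was -1.71 (SE 0.381, limma adjusted p = 0.0417), and it passed in 2 of the 11 fits that left out a library, those without wild-type replicate 3 and without compound mutant replicate 3. The difference from wild type was -0.82 (SE 0.381, limma adjusted p = 0.196). The actins, smooth muscle actins included, and the myosin heavy chains are families of genes with similar coding sequences. How reads shared between such genes were assigned is not given in the sources used here.

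The other 8 thin filament genes were nebulin (Neb) and the troponins, which switch contraction on with calcium. None was called, and their differences of the compound mutant from Cilk1-/- ran from -1.18 (Tnnc1) to -0.17 (Neb), with limma adjusted p from 0.0597 to 0.189. Among the troponins, 1 isoform of each subunit led. Slow Tnnt1 was above fast Tnnt3 in 11 of 11 libraries (by 0.67 to 1.22 on the log2 scale), slow Tnni1 above fast Tnni2 in 11 of 11 (by 0.03 to 0.88) and slow Tnnc1 above fast Tnnc2 in 10 of 11. Myh3 exceeded Myh8 in 11 of 11 libraries (by 0.33 to 1.24) and Actc1 exceeded Acta1 in 11 of 11 (by 0.06 to 1.10). These level comparisons between genes hold if the values are FPKM, which are per length.

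Actc1 and Myh3 took smaller shares of the contractile level in the compound mutants. Actc1 made up 11.1% to 19.1% of the summed linear contractile level in the 8 wild-type and Cilk1-/- libraries, and 5.73%, 6.97% and 6.34% in the compound mutants. Myh3 made up 4.19% to 6.31% in those 8 libraries and 3.09%, 2.81% and 3.62% in the compound mutants. For Acta1 the shares overlapped, since 5.82% in compound mutant replicate 3 lay above the 5.02% of wild-type replicate 4. Tnnt2, in contrast, made up 3.35% to 4.64% in the 8 libraries and 7.25%, 5.79% and 5.39% in the compound mutants. The compound mutant shares of Mybpc1, Tnnt3, Tnnc2 and Ttn were likewise all above those in the 8 libraries. A share falls where other members rise and rises where they fall. These shares, chosen after their values were seen, were not tested. Without both alpha-actins the compound mutants had 16-gene sums of 13.1, 14.9 and 14.9, below the 28.6 to 75.9 of Cilk1-/- and within the 14.3 to 43.2 of wild type but for compound mutant replicate 1.

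The giant protein titin (Ttn) and the Z-disc crosslinker alpha-actinin 2 (Actn2) complete the contractile genes. Actn2 was at 0.65, 1.15, 1.46 and 0.69 in wild-type replicates 1 to 4, at 2.08, 1.13, 1.10 and 1.52 in Cilk1-/-, and at 0.56, 0.51 and 0.63 in the compound mutants. All compound mutants were below all other libraries, but the difference from Cilk1-/- was not called (-0.89, SE 0.249, limma adjusted p = 0.0743). Ttn was between 0.02 and 0.32 in all libraries.

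Genes that support the filaments differed less. Cryab encodes a small heat shock protein that is abundant in muscle and also made in lens and other tissues. It was at 2.08, 2.55, 2.68 and 2.47 in wild type, at 3.19, 2.79, 2.78 and 2.84 in Cilk1-/-, and at 2.72, 2.27 and 2.28 in the compound mutants. All Cilk1-/- libraries were above all others, with a difference from wild type of 0.46 (SE 0.151, limma adjusted p = 0.126). Desmin (Des), the intermediate filament of muscle, and Klhl41, a sarcomere-associated kelch protein, differed between the compound mutant and Cilk1-/- by -0.45 and -0.60, with limma adjusted p of 0.207 and 0.124.

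The next 4 genes act in excitation and calcium handling: the release channel Ryr1, its voltage sensor Cacna1s, the store protein Casq2 and the fast fiber calcium pump Atp2a1. Atp2a1 was at 0.68, 0.81, 0.94 and 0.62 in wild type, at 1.46, 0.99, 0.96 and 1.13 in Cilk1-/-, and at 0.84, 0.69 and 0.82 in the compound mutants. All Cilk1-/- libraries were above all others, and the difference from wild type was 0.37 (SE 0.112, limma adjusted p = 0.102). The other 3 differed between the compound mutant and Cilk1-/- by -0.41 to -0.14, with no call.

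The 3 acetylcholine receptor genes encode subunits of the neuromuscular junction and had low levels throughout. Chrng, the fetal subunit, was at 0.49, 0.44, 0.57 and 0.41 in wild type, at 0.71, 0.44, 0.43 and 0.46 in Cilk1-/-, and at 0.27, 0.30 and 0.23 in the compound mutants. The compound mutants were below all other libraries, with differences of -0.24 from Cilk1-/- (SE 0.072, limma adjusted p = 0.0887) and -0.21 from wild type (SE 0.072, limma adjusted p = 0.103). Chrna1 and Chrnd, at levels of 0.15 to 0.69 in all libraries, differed from Cilk1-/- by -0.23 and -0.11.

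The 31 genes were spread over the genome: 30 had a position under their own symbol in GENCODE M21 (GRCm38), on 10 chromosomes. Close neighbors were Chrnd and Chrng (4.59 kb apart on chromosome 1), Tnni1 and Tnnt2 (25.4 kb, chromosome 1), Tnni2 and Tnnt3 (54.4 kb, chromosome 7) and Myh3 and Myh8 (175 kb, chromosome 11). Actc1 lies at chr2:114047282-114053548, Acta1 at chr8:123891769-123894751 and Myh3 at chr11:67078300-67102291. These GENCODE starts differ in part from the RefSeq starts used for the sequence windows. The Actc1 window, with its CArG box, lies inside the GENCODE interval of the gene. The Myog window runs past the GENCODE start at 134289989.

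Other genes of the muscle program were taken from a list of 105 symbols, of which 81 were analysed. Many of them are also used outside muscle, and the mean log2 value of 37 was 1 or more. None of the 81 was called between Cilk1-/- and wild type or between the compound mutant and Cilk1-/-, where 0 and 3 passed at an unadjusted p under 0.05 with the fold change. These 3 were Mybph and Sgcd, lower in the compound mutant (0.973% of all genes), and Pax3, higher there through compound mutant replicate 1 (2.25 on the log2 scale, against 0.21 to 0.55 elsewhere). Some passed the limma adjusted p of 0.05 without the fold change. Mef2c, Cmya5 and Myom3 did so, higher in Cilk1-/- than in wild type (0.0240 to 0.0396). Lower in the compound mutant than in Cilk1-/- were Myom3, Cmya5, Srl, Myom2 and Casq1 (0.0132 to 0.0385). With the replicate block these adjusted p were 0.165 to 0.221. Between the compound mutant and wild type 1 of the 81 was called, against 1.25% of all genes, and this was the M-band gene Myom2. It was at 0.64, 1.03, 0.94 and 0.91 in wild-type replicates 1 to 4, at 0.81, 0.40, 0.50 and 0.51 in Cilk1-/-, and at 0.03, 0.04 and -0.03 in the compound mutants. The difference from wild type was -0.87 (SE 0.105, limma adjusted p = 0.00300), and with the replicate block the adjusted p was 0.0656. Unlike the 31 genes, Myom2 had a lower mean in Cilk1-/- than in wild type (-0.32, limma adjusted p = 0.101). Casq1, Srl, Fhl1 and Heyl were lower in the compound mutant than in wild type, and Stac3 and Pygm were higher. They passed the limma adjusted p without the fold change (0.0144 to 0.0451, and 0.122 to 0.222 with the replicate block). Pax3 and Amd1 were higher than in wild type at an unadjusted p under 0.05 with the fold change (341 of all 16755 genes). Cilk1-/- replicate 1 was the highest library for 32 of the 81 (6.71% of all genes).

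Markers of other tissues near the molar were summed in the same way. The 10 smooth muscle markers summed to 96.9 to 106 in wild type, 101 to 106 in Cilk1-/- and 89.2 to 108 in the compound mutants on the linear scale. Of 11 cardiac markers 5 were analysed, and their sums were 2.997 to 4.21, 3.54 to 4.50 and 3.95 to 6.30. The 7 tendon markers summed to 46.5 to 58.2 in wild type, to 71.7 to 93.0 in Cilk1-/- and to 47.9, 56.7 and 103 in the compound mutants, and among them Fmod was called higher in Cilk1-/- (1.02, SE 0.185, limma adjusted p = 0.0245, and 0.140 with the replicate block). The part of any of these tissues in the muscle differences was not tested. Without compound mutant replicate 1, the library with the cartilage and neuron markers, the difference from Cilk1-/- was -2.28 for Actc1, -1.60 for Acta1 and -1.49 for Myh3, at limma adjusted p of 0.0443, 0.0856 and 0.0599.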

How the data were processed

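Reads were mapped to mm10 with HISAT2 2.0.5 and counted per gene with featureCounts 1.5.0-p3 according to the submitters' processing notes. The table the authors deposited holds log2 values of 16755 genes in 11 libraries, whose range and library sums fit log2(FPKM + 1). The log step and any later adjustment are not given in the sources used here, 257 genes have values below 0, and read depth is unknown. All genes were fitted in limma 3.58.1 (R 4.3.3) with eBayes (trend and robust), 1 fit for the 3 genotypes, with Benjamini-Hochberg adjustment over all genes. Calls required both an adjusted p below 0.05 and a change of 1.5-fold or more. Differences on the log2(value + 1) scale understate the change of low genes. Linear values below 0 were set to 0 for sums.

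Over all genes, deviations from the genotype mean in same-numbered wild-type and Cilk1-/- libraries had correlations of -0.74, -0.89, -0.85 and -0.79 for numbers 1 to 4. These libraries were therefore regarded as linked, but the main fit has no term for this and takes them as independent. Values from a fit with a term for the replicate number (the replicate block) stand beside each call that they change. Such a term describes shifts shared by libraries of a number, whereas these deviations were opposite. Values with the block therefore show how a call depends on that term and are no full account of the link. The block places the compound mutants by number alone, and their deviations had correlations of -0.12 to 0.26 with those of same-numbered libraries.

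The members and all gene lists were chosen with earlier results of these data known, and 1 gene of the lists of other muscle genes and tissue markers is not reported here. Values by library are given for the regulators, for Tmem8c, for the called genes and for the gene with the highest mean of each other role. The fit was tested on simulated data. Alternatives were the 2 genotypes alone, other thresholds, the label set as a term, 2 blocks, other variance models, filters and normalizations, a pseudocount of 0.1 and leaving out each library.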

Additional observations from a re-analysis of the deposited data

Results flagged for a closer look

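In groups of 4 libraries, a library was singled out where its gap to the nearest other library, divided by the range of the group, exceeded Dixon's 95% critical value. Of the 62 groups examined (31 genes in wild type and in Cilk1-/-), 4 met this, near the 1 in 20 that chance gives. The groups were not independent, since the 31 genes moved together. In all 4 that met it, the library was Cilk1-/- replicate 1. Myod1 was at 1.76 there on the log2 scale, against 0.70 to 0.80 in the other 3 libraries of the genotype. Myog was at 2.28, against 1.15 to 1.27. Cryab was at 3.19, against 2.78 to 2.84, and Chrng at 0.71, against 0.43 to 0.46. The 18 contractile genes were also highest in this library, but none was singled out in this way, since Cilk1-/- replicate 4 was high for many of them too.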

How the results depend on the processing

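Of 841 values computed for 43 results under 20 alternatives, 806 kept their direction and their side of the threshold or stayed within the stated margin. The 2 that reversed, neither of them called, were the differences between Cilk1-/- and wild type without Cilk1-/- replicate 1, at -0.014 for Myod1 and -0.0761 for Myog. Over all fits without 1 library these differences ran up to 0.34 and 0.30. The count of muscle genes called between the compound mutant and Cilk1-/- was 3. It was 0 with the replicate block, 0 with the label set as a term, 0 with the block that places the compound mutants with pair 4 and 0 with only the 2 genotypes fitted. It was 5 with a pseudocount of 0.1 and 16 at an unadjusted p, and 0 to 4 on leaving out each library in turn. The cause was not tested. Between the compound mutant and wild type the count was 0, but 1 with a pseudocount of 0.1 (Actc1) and 2 at an unadjusted p. Between Cilk1-/- and wild type it was 0, but 5 at an unadjusted p. As a mean of log2 values, the contractile level was 1.26 in wild type, 1.80 in Cilk1-/- and 0.82 in the compound mutant, in the same order as the sums. Without both alpha-actins the compound mutant sum was 14.3. The replicate block changed no other call among the 31 genes. With 3 or 4 libraries per genotype and levels near 1 linear unit, small differences could not be resolved.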
